A study of Homo sapiens with 6 samples.

Results

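Expression of 10 genes for plasma membrane amino acid transporters was followed in PANC-1 cells, a line derived from a human carcinoma of the pancreas, with and without raffinose, a plant sugar. The genes are SLC7A5, SLC3A2, SLC7A11, SLC7A1, SLC38A1, SLC38A2, SLC1A4, SLC1A5, SLC6A9 and SLC43A1. They were found by gene symbol, and all 10 had 1 row each among the 60612 rows of the table. They had been chosen on earlier results for the same contrast, with SLC6A9, SLC7A5, SLC38A2 and SLC1A5 in front, so their own values for that contrast are given as a description. The raffinose group holds 3 libraries of cells exposed to 50 µM of D(+)-raffinose pentahydrate over 24 h. The untreated group holds 3 libraries whose source and description name only the cell line, with no vehicle and no time given. The labels conflict here, since their treatment text names raffinose for all 6 libraries, so the direction of every comparison rests on the source and description. The labels do not state whether replicates are separate cultures. The p-values thus set group differences only against the spread of these libraries within groups, and that spread may be technical. In the sentences on single genes, the values of a group stand in the order of replicates 1, 2 and 3.

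Amino acids cross the plasma membrane through carriers with overlapping substrates. Exchangers such as SLC7A5 and SLC1A5 swap one amino acid for another, while sodium-coupled symporters such as SLC38A1, SLC38A2 and SLC6A9 load the cell against a gradient. Several of these genes are known targets of ATF4, the transcription factor that responds to amino acid shortage, and carcinoma cells often express SLC7A5, SLC1A5 and SLC7A11 strongly.

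Polyadenylated RNA was sequenced, and each library had a total estimated count of 59723420 to 66063664. An estimated count of 4 was far more frequent than 3 or 5 (1255 to 1382 genes against 440 to 497 and 229 to 286), so 1 sequenced fragment may add more than 1 to a count. The epithelial keratins KRT8 and KRT18 had mean levels of 393 and 521 FPKM (fragments per kilobase of transcript, scaled to sequencing depth) in untreated cells, while KRT19 and EPCAM had 0.119 and 0.166 FPKM. Insulin (INS), glucagon (GCG), trypsinogen (PRSS1) and amylase (AMY2A) transcripts had a count of 0 in all 6 libraries, which allows a level of up to 0.203 CPM (counts scaled to the library total) each, by counting error alone and taking 3 fragments of 4 counts as the limit. The summed FPKM of 6 simple epithelial markers was 851 to 988 in untreated and 655 to 687 in raffinose libraries. For 6 leukocyte markers the sum was 12.4 to 15.9 and 6.99 to 9.48 FPKM, nearly all of it from CD68, with CD3E at 0 and PTPRC at no more than 0.0109 FPKM in a library. For 7 fibroblast markers it was 47.9 to 52.0 and 44.6 to 47.3 FPKM. Only 2 of these 7 had a mean of at least 1 FPKM over the 6 libraries. At an adjusted p under 0.05 edgeR called 0 markers of these 3 lists. DESeq2 called 2 epithelial markers and 1 leukocyte marker lower, against 1.83% of the genes to which it gave an adjusted p. In CPM 3 epithelial, 1 leukocyte and 1 fibroblast marker were lower without overlap between the groups, and 1 fibroblast marker was higher. Of all tested genes 10.9% were lower and 10.6% higher in that way. The part of these shifts in the transporter values was not tested. In such bulk libraries fewer cells of a type and less RNA per cell cannot be told apart.

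Upstream sequences of the 4 transporters that lead the results are shown first, because SLC7A5, SLC1A5 and SLC6A9 were lower and SLC38A2 higher in the raffinose libraries. They come from RefSeq on GRCh38.p14, which held 16 start-site windows for 9 of the 10 genes and none for SLC7A11. Each runs 5′ to 3′ on the minus strand and was kept outside the exons of its own gene in GENCODE 29. Exons of other genes were not checked. Plus-strand genes of the table span the sequences of SLC1A5 (AC008622), SLC38A2 (AC025031) and SLC6A9 (AL139220). These genes had estimated counts of at most 57, 21 and 36 in a library. The SLC7A5 sequence lies at chr16:87869508-87869757, that of SLC1A5 at chr19:46788595-46788844, that of SLC38A2 at chr12:46372868-46373023 and that of SLC6A9 at chr1:44031468-44031712. Capitals mark the E-box described after them, in the SLC7A5 sequence, and the other 3 sequences hold no match to a searched motif.
SLC7A5 upstream sequence: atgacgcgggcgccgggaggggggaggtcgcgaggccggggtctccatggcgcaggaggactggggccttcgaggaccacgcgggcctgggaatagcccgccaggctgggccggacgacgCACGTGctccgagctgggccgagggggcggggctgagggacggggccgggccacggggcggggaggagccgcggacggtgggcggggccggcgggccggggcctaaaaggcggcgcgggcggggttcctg
SLC1A5 upstream sequence: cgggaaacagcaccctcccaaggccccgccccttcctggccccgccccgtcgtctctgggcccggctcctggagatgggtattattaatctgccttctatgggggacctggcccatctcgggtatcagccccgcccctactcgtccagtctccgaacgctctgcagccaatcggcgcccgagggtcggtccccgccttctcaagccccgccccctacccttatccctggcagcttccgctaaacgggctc
SLC38A2 upstream sequence: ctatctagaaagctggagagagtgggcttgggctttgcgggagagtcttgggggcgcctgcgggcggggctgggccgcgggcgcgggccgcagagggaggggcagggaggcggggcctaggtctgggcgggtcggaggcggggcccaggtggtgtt
SLC6A9 upstream sequence: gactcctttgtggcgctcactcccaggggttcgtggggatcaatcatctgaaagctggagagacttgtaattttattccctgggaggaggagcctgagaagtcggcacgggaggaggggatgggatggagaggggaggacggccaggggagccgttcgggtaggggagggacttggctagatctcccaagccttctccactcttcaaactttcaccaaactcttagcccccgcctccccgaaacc

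A set of 3 motifs was searched on both strands of the 250 bases before each start site. They were the core of the C/EBP-ATF response element (TGATGNAA), the E-box bound by MYC with MAX (CACGTG) and the core of the antioxidant response element bound by NRF2 (TGACNNNGC). No match overlapped one of another motif in the windows of these genes. SLC7A11 had no window and was not searched. The SLC7A5 window held 1 E-box, 130 to 125 bases before the start site. An E-box was in 3 of the 16 windows, of SLC7A5, SLC1A5 (at another start site than the one shown) and SLC43A1, and in 6.34% of all 35116 windows in the table. The antioxidant core was in 3 windows, of SLC3A2, SLC7A1 and SLC1A5, against 10.9% of all. The C/EBP-ATF core was in 1 window, against 3.14% of all, at a start site of SLC1A5 inside the gene (chr19:46784893-46784922, minus strand), given here with its flanks and with the match in capitals. Counted by gene, the E-box was in 3 of 9 members, 4 of 22 other plasma membrane amino acid transporters and 7.73% of all genes with a window. In the same order the antioxidant core was in 3, 3 and 13.2%, and the C/EBP-ATF core in 1, 1 and 3.89%. A match is a run of letters and was not tested as a binding site, and windows without a match say nothing of the factor.
SLC1A5 inner start site: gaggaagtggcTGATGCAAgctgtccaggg

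In cells given raffinose SLC6A9 fell by 47.6%, while SLC7A5, SLC38A1, SLC7A1, SLC1A5 and SLC1A4 were lower and SLC38A2 higher without overlap between the groups in CPM. SLC3A2, SLC7A11 and SLC43A1 overlapped between the groups. Levels of one gene across libraries are given as CPM after scaling by trimmed mean of M values (TMM). Each log2 fold change compares raffinose with untreated cells. Its standard error (SE) was derived from edgeR's quasi-likelihood test, as the absolute log2 fold change divided by the square root of the F statistic. Of the 10 genes 1 was called lower and 0 higher at a Benjamini-Hochberg adjusted p under 0.05 over all 18863 genes tested, of which 0.0848% were called lower and 0.0371% higher. DESeq2 called SLC6A9 and SLC7A5 lower and no member higher, against 1.83% and 1.10% of the genes to which it gave an adjusted p. Groups did not overlap for 6 lower members and 1 higher member, where 10.9% of all tested genes were lower and 10.6% higher in that way. The median log2 fold change was -0.19 over the 10 genes, with 3 positive, and 0.01 over all tested genes, of which 51.0% were positive. As the genes had been picked on this contrast, nothing is read from these counts. All 10 passed the filter on low counts.

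**Figure D1:**
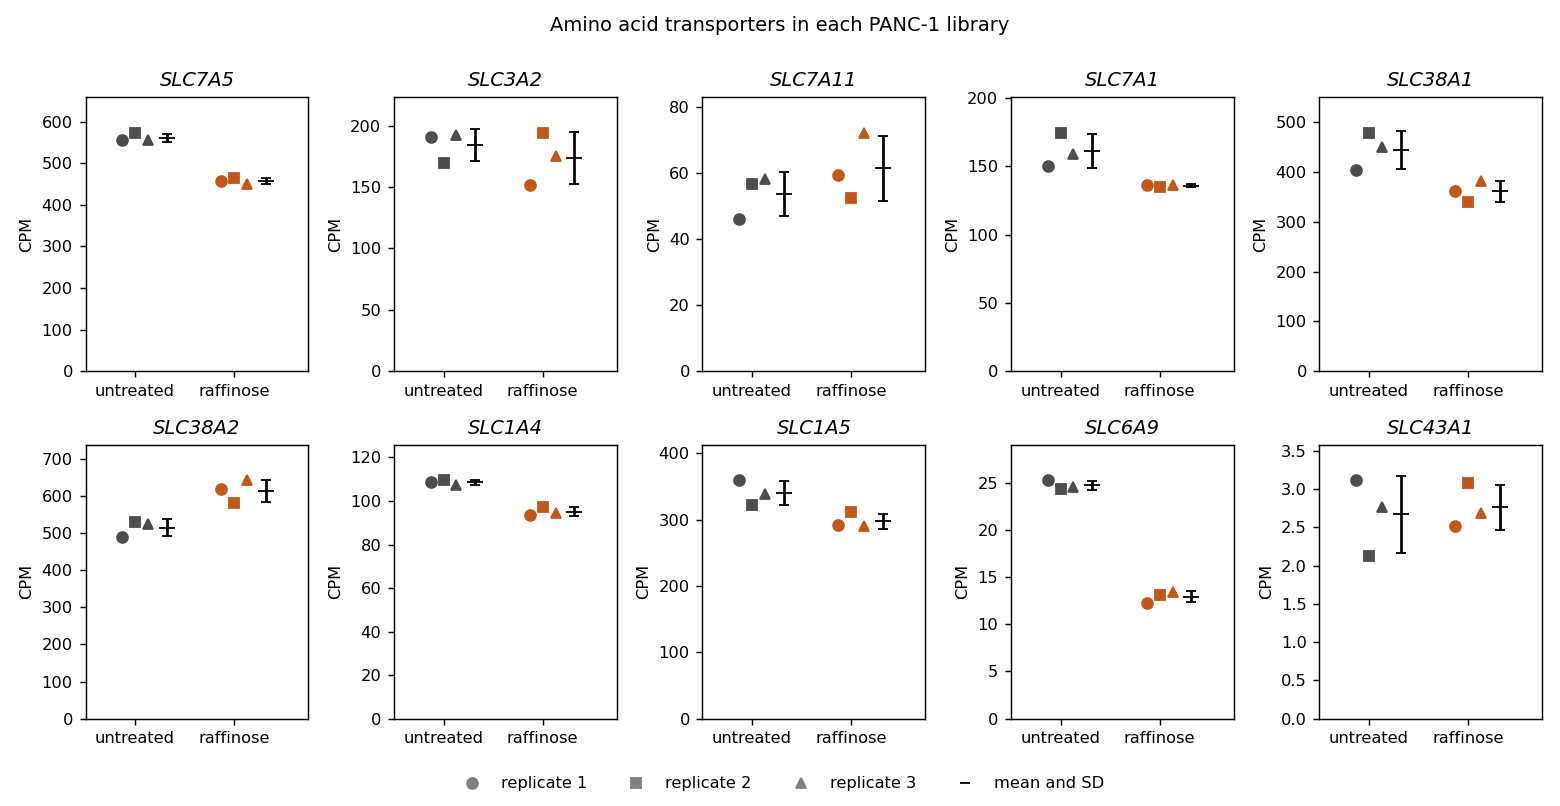
Level of each of the 10 transporter genes in CPM after TMM scaling (vertical axes, each from 0) in the 3 untreated and 3 raffinose libraries, with each point a library and the mark beside it the mean and SD. SLC6A9 lies at 24.3 to 25.2 CPM untreated and 12.2 to 13.5 CPM with raffinose, while the 2 groups of SLC3A2, SLC7A11 and SLC43A1 overlap.

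SLC6A9 (ENSG00000196517, chromosome 1, 43991500 to 44031467, minus strand) encodes the glycine transporter GlyT1, a symporter that takes up glycine with sodium and chloride. It was at 12.2, 13.1 and 13.5 CPM in raffinose libraries, and at 25.2, 24.3 and 24.5 CPM in untreated libraries. The highest raffinose library was thus well below the lowest untreated one, and the gap was many times the spread within either group. The means were 24.7 ± 0.475 and 12.9 ± 0.624 CPM (SD, n = 3 per group), and the log2 fold change was -0.93 (SE 0.08). The deposited estimated counts behind these levels were 784, 829 and 866 with raffinose and 1621, 1570 and 1451 without. It was the only member that edgeR called, and the call was lost with any 1 of the 6 libraries left out, while the log2 fold change stayed between -0.96 and -0.90. SLC6A9 overlaps CCDC24 on the plus strand, with 404 of its 5159 exonic bases shared in GENCODE 29, and whether the counting used the strand is not given in the sources used here. CCDC24 was at 9.46 CPM untreated and 12.4 CPM with raffinose on average (log2 fold change 0.38, SE 0.16, edgeR adjusted p = 0.382). Its mean level was thus 2.89 CPM higher. The part of CCDC24 in the SLC6A9 value was not tested.

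SLC7A5 (ENSG00000103257, chromosome 16, 87830023 to 87869507, minus strand) encodes LAT1, an exchanger that imports leucine and other large neutral amino acids. It stood at 456, 464 and 449.7 CPM in raffinose libraries and at 555, 573 and 555 CPM in untreated libraries. The 2 groups were each tight and did not overlap. Means were 561 ± 10.2 without and 457 ± 7.09 CPM with raffinose (SD, n = 3 each), a log2 fold change of -0.30 (SE 0.04). DESeq2 called it lower and edgeR did not. Its pseudogenes SLC7A5P1 and SLC7A5P2 had counts of at most 33 and 42 in a library, so reads counted there are few beside those of SLC7A5.

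SLC3A2 (ENSG00000168003, chromosome 11, 62856102 to 62888875, plus strand) encodes CD98 heavy chain, the glycoprotein that carries SLC7A5, SLC7A11 and other light chains to the membrane. Its levels were 152, 194 and 176 CPM in raffinose libraries and 191, 169 and 192 CPM in untreated libraries. These ranges overlapped, with the lowest and the highest of all 6 values in raffinose libraries. The log2 fold change of -0.08 (SE 0.10) turned to 0.01 without raffinose replicate 1. Heavy chain and main light chain thus had different fitted values, and the difference between them was not tested.

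SLC7A11 (ENSG00000151012, chromosome 4, 138164097 to 138242349, minus strand) encodes xCT, the light chain that imports cystine in exchange for glutamate and feeds glutathione synthesis. It was measured at 59.6, 52.6 and 72.3 CPM in raffinose libraries and at 46.1, 56.8 and 58.2 CPM in untreated libraries. The groups overlapped, and raffinose replicate 3 was the highest library. The log2 fold change was 0.20 (SE 0.14), and it was 0.06 without raffinose replicate 3 and 0.10 without untreated replicate 1. Its antisense gene SLC7A11-AS1 had a count of at most 14 in a library.

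SLC43A1 (ENSG00000149150, chromosome 11, 57484534 to 57515780, minus strand) encodes LAT3, a carrier of leucine and related amino acids that works without a heavy chain. It was at 2.51, 3.08 and 2.69 CPM in raffinose libraries and 3.11, 2.12 and 2.77 CPM in untreated libraries. The groups overlapped fully at estimated counts of 137 to 200. Its log2 fold change was 0.05 (SE 0.20), and it was -0.04 without raffinose replicate 2 and -0.09 without untreated replicate 2.

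SLC38A2 (ENSG00000134294, chromosome 12, 46358188 to 46372773, minus strand) encodes SNAT2, a sodium symporter of small neutral amino acids that is known to be induced when amino acids are short. Its 3 raffinose replicates had 618, 582 and 642 CPM and its 3 untreated replicates 489, 530.3 and 525 CPM. Every raffinose library was above every untreated one, which held for no other member. Means were 515 ± 22.7 and 614 ± 30.4 CPM (SD, n = 3 each), a log2 fold change of 0.25 (SE 0.06), and neither edgeR nor DESeq2 called it.

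SLC38A1 (ENSG00000111371, chromosome 12, 46183063 to 46269951, minus strand), its neighbour on the chromosome, encodes SNAT1, a related glutamine symporter. In raffinose libraries it was at 362, 340.5 and 383 CPM, and in untreated libraries at 404, 479 and 451 CPM. In CPM the groups did not overlap and lay in the opposite order to those of SLC38A2. In FPKM they overlapped, with raffinose replicate 3 at 32.8 and untreated replicate 1 at 32.5 FPKM. Means were 445 ± 37.8 and 362 ± 21.1 CPM (SD, n = 3 each), with a log2 fold change of -0.30 (SE 0.08) that neither tool called.

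SLC1A5 (ENSG00000105281, chromosome 19, 46774883 to 46788594, minus strand) encodes ASCT2, a sodium-dependent exchanger of glutamine and other neutral amino acids. It was at 291, 311 and 289.8 CPM in raffinose libraries, against 359, 322 and 339 CPM in untreated libraries. The nearest libraries of the 2 groups, raffinose replicate 2 and untreated replicate 2, were close to each other. The log2 fold change was -0.19 (SE 0.06) from means of 340.1 ± 18.5 and 297 ± 11.7 CPM (SD, n = 3 each).

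SLC1A4 (ENSG00000115902, chromosome 2, 64988477 to 65023865, plus strand) encodes ASCT1, an exchanger of alanine, serine, cysteine and threonine. Its values were 93.5, 97.3 and 94.3 CPM in raffinose libraries and 109, 109 and 107 CPM in untreated libraries. Both groups were narrow and apart, and the log2 fold change of -0.19 (SE 0.05) was nearly that of SLC1A5. LINC02245, which overlaps SLC1A4 on the opposite strand, was at 2.47 CPM untreated and 2.95 CPM with raffinose on average.

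SLC7A1 (ENSG00000139514, chromosome 13, 29509414 to 29595688, minus strand) encodes CAT1, the carrier of arginine, lysine and other cationic amino acids, which needs no heavy chain. It stood at 137, 135 and 137 CPM in raffinose libraries and at 150.5, 175 and 159 CPM in untreated libraries. The raffinose libraries were nearly equal, and the untreated ones spread more widely above them. Its log2 fold change was -0.25 (SE 0.07), from 161 ± 12.3 to 136 ± 1.08 CPM (SD, n = 3 each), and neither tool called it.

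**Figure D2:**
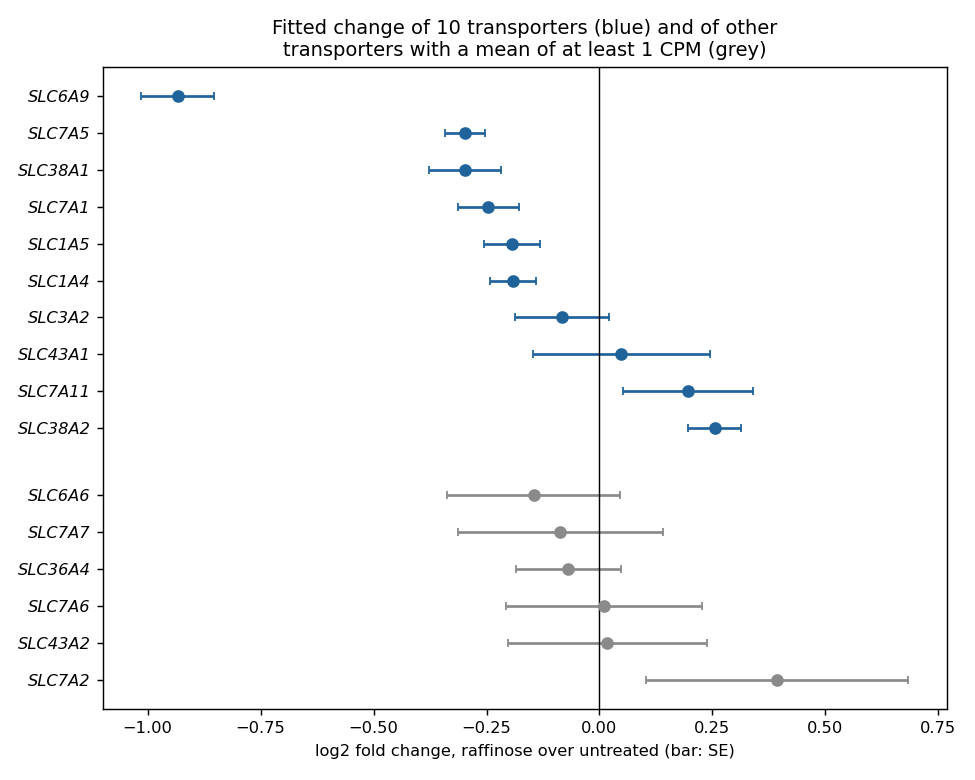
Log2 fold change of raffinose over untreated from the edgeR fit (horizontal axis, bars show the SE) for the 10 transporters in blue and, in grey, the 6 other plasma membrane amino acid transporters with a mean of at least 1 CPM in a group. SLC6A9 lies at -0.93 and SLC38A2 at 0.25, and the grey values run from -0.15 for SLC6A6 to 0.39 for SLC7A2.

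Levels of different genes were compared per length, as FPKM. In untreated cells SLC7A5 was highest at 97.0 ± 3.21 FPKM, followed by SLC1A5 at 84.0 ± 3.11, SLC38A2 at 65.1 ± 4.03, SLC38A1 at 36.6 ± 3.74 and SLC3A2 at 29.4 ± 1.81 FPKM (SD, n = 3 each). SLC7A1 had 17.3 ± 1.59, SLC1A4 12.9 ± 0.269, SLC7A11 4.59 ± 0.642, SLC6A9 3.87 ± 0.00360 and SLC43A1 0.614 ± 0.107 FPKM (SD, n = 3 each). Neighbours in this order did not overlap, except SLC7A11 and SLC6A9, whose ranges overlapped. SLC7A5, SLC1A5 and SLC38A2 had a higher mean FPKM over the 6 libraries than 98.0%, 97.7% and 97.5% of tested genes, and SLC6A9 than 56.2%.

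With raffinose the 3 highest genes lay closer together. SLC7A5 was at 80.9 ± 0.168, SLC38A2 at 79.7 ± 5.15 and SLC1A5 at 75.3 ± 2.04 FPKM (SD, n = 3 each), and the values of these neighbours overlapped. SLC38A1 at 30.5 ± 2.24 and SLC3A2 at 28.5 ± 3.33 FPKM also overlapped (SD, n = 3 each). SLC7A11 at 5.39 ± 0.959 and SLC6A9 at 2.07 ± 0.115 FPKM no longer did (SD, n = 3 each). The summed FPKM of the 10 genes was 351 ± 9.32 without and 329.6 ± 7.78 with raffinose (SD, n = 3 each).

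**Figure D3:**
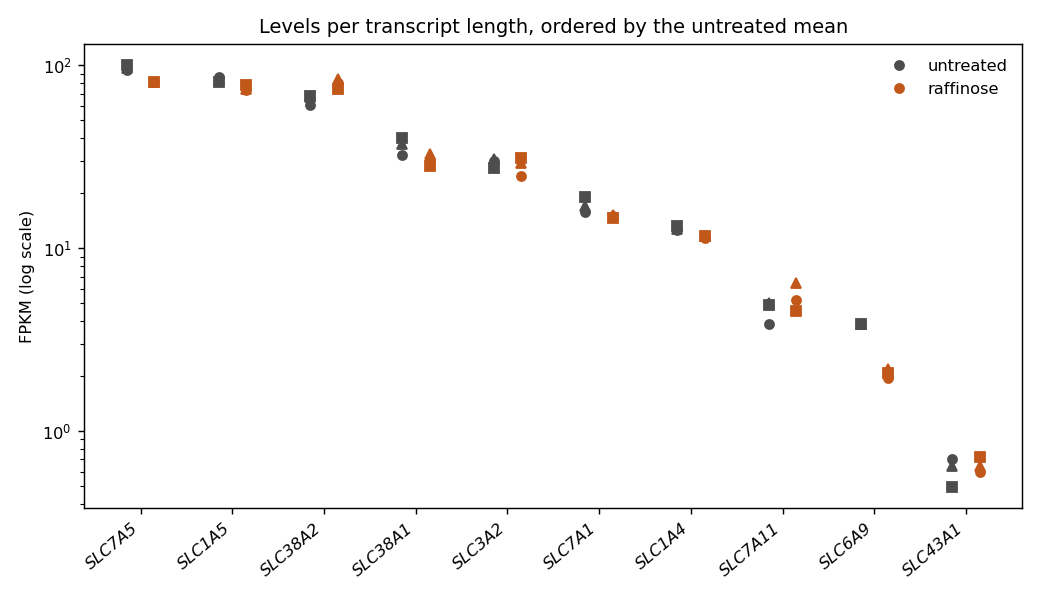
FPKM (log scale) of the 10 transporters in each untreated (grey) and raffinose (orange) library, ordered by the untreated mean, with marker shapes for replicates 1 (circle), 2 (square) and 3 (triangle). The levels span from 97.0 FPKM for SLC7A5 to 0.614 FPKM for SLC43A1 in untreated cells, and the 3 highest genes lie together in raffinose libraries.

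Ratios between members were taken within each library, where scaling cancels. The FPKM ratio of SLC38A2 to SLC38A1 was 2.63, 2.63 and 2.58 in raffinose libraries and 1.86, 1.70 and 1.79 in untreated libraries. The 2 groups of ratios lay well apart, with means of 1.79 ± 0.0784 and 2.61 ± 0.0258 (SD, n = 3 each). SLC1A5 to SLC38A2 gave 0.921, 1.04 and 0.882 with raffinose and 1.44, 1.19 and 1.26 without, again with no overlap. This follows from the FPKM of both genes, which did not overlap between the groups and lay in opposite order. As the genes had been picked on this contrast, nothing further is read from their ratios. The ratio of the 2 SLC1 exchangers, SLC1A5 to SLC1A4, was 6.53 ± 0.376 without and 6.52 ± 0.127 with raffinose (SD, n = 3 each), and overlapped.

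SLC1A5, SLC38A1, SLC38A2, SLC38A3 and SLC38A5 can all carry glutamine. Together they had a summed level of 186 ± 5.02 FPKM without and 186 ± 5.96 FPKM with raffinose (SD, n = 3 each). SLC7A5, an exchanger of neutral amino acids at 97.0 FPKM without and 80.9 FPKM with raffinose, was left out. The likeness of the 2 means holds for this choice of carriers only. Within this sum SLC38A2 held 35.0% ± 1.25 and 42.9% ± 1.49, SLC1A5 45.3% ± 2.80 and 40.6% ± 2.17, and SLC38A1 19.7% ± 1.54 and 16.4% ± 0.697 (SD, n = 3 each). SLC38A2 and SLC38A1 shares did not overlap between the groups, while SLC1A5 shares did. The sums of the chosen carriers overlapped between the groups while these shares of SLC38A2 and SLC38A1 lay apart. Both genes had been picked on this contrast, so nothing further is read from their shares.

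Light chains known to pair with SLC3A2 (SLC7A5, SLC7A6, SLC7A7, SLC7A8, SLC7A10 and SLC7A11) summed to 101, 109 and 105 FPKM without and 90.8, 88.7 and 90.4 FPKM with raffinose. SLC7A5 made up 92.3% ± 0.573 and 90.0% ± 1.27 of this sum, and SLC7A11 4.36% ± 0.494 and 5.99% ± 1.02 (SD, n = 3 each). Neither the sums nor these shares overlapped between the groups. As SLC7A5 and SLC7A11 had been picked on this contrast, nothing further is read from this. The ratio of SLC7A5 to SLC7A11 was 15.5, 17.9 and 12.6 in raffinose and 24.4, 20.4 and 19.3 in untreated libraries. That of SLC7A5 to SLC3A2 was 3.25, 2.59 and 2.77 with and 3.15, 3.67 and 3.12 without raffinose, which overlapped.

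**Figure D4:**
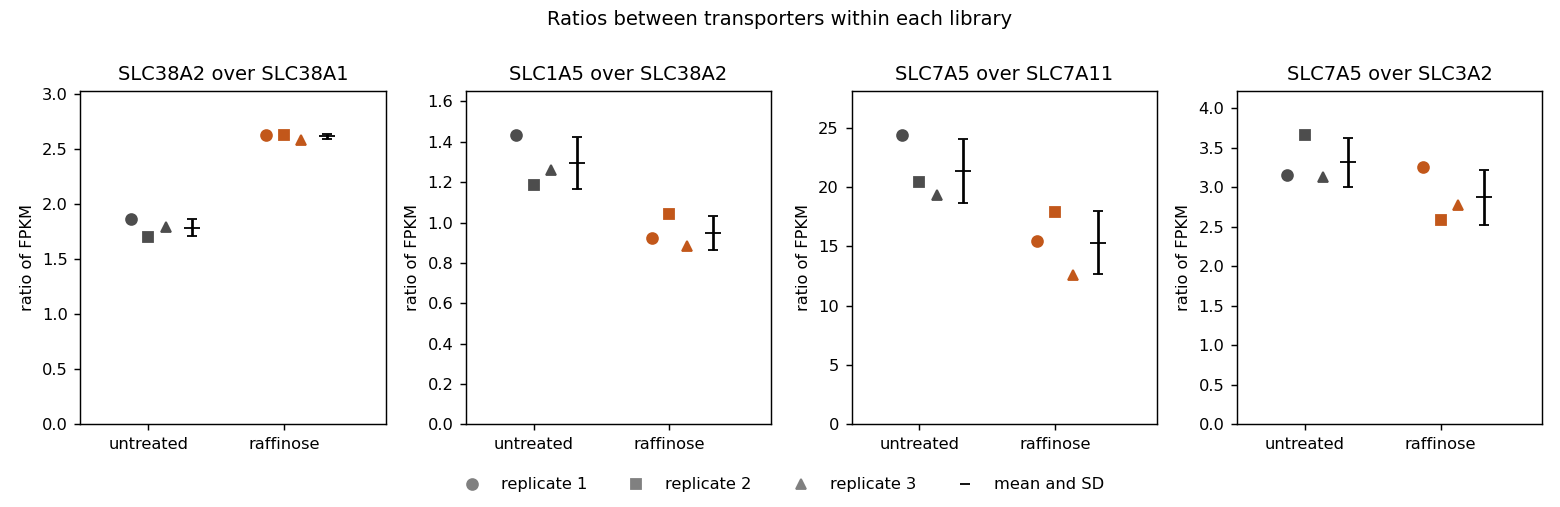
FPKM ratios of 4 pairs of transporters within each library (vertical axes from 0), with points for libraries and a mark for the mean and SD of each group. SLC38A2 over SLC38A1 lies at 1.70 to 1.86 untreated and 2.58 to 2.63 with raffinose, while SLC7A5 over SLC3A2 overlaps between the groups.

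Among 30 other plasma membrane amino acid transporters, 11 were expressed enough to be tested, 4 of them with a positive and 7 with a negative log2 fold change. Their median was -0.09, against 0.01 over all tested genes. By edgeR 0 passed, 0 had an unadjusted p under 0.05, and DESeq2 also called 0. Among the 18863 genes tested, 7.08% were lower and 6.21% higher at that unadjusted p. The 19 that were not tested had an estimated count of at most 23 in any library, and 8 of them, among them the second glycine transporter SLC6A5, had no count at all. SLC6A6, the taurine transporter, had a log2 fold change of -0.15 (SE 0.19, edgeR adjusted p = 0.794), and the cationic amino acid carrier SLC7A2 one of 0.39 (SE 0.29, edgeR adjusted p = 0.622). SLC38A5, a relative of SLC38A1, had -0.68 (SE 0.82) at 0.312 CPM untreated, and the aromatic amino acid carrier SLC16A10 had 1.56 (SE 1.11) at 0.216 CPM untreated. Single libraries moved these 4 values. SLC6A6 was at 0.05 without raffinose replicate 2 and -0.31 without raffinose replicate 3, and SLC7A2 at 0.12 without untreated replicate 3 and 0.63 without untreated replicate 2. Without untreated replicate 2 the values were 0.10 for SLC38A5 and 0.98 for SLC16A10, and SLC38A5 was also at -1.40 without raffinose replicate 2, -1.06 without untreated replicate 1 and -0.27 without raffinose replicate 1. SLC16A10 was at 0.04 with limma on log2(FPKM + 1) and 0.33 on log2(FPKM + 0.1). Of the other light chains, SLC7A6 and SLC7A7 had 0.01 (SE 0.22) and -0.09 (SE 0.23). SLC7A8 and SLC7A10 were not tested, with estimated counts of 8, 16 and 4, and of 8, 4 and 21, in raffinose libraries and 0 in untreated ones. If 1 fragment adds 4 to a count, these are very few fragments. Also not tested, SLC1A1 and SLC7A3 had counts of 8 and 4, each in 1 raffinose library only. SLC1A2 and SLC38A3 had counts of 4 and 10, each in 1 untreated library only. Nothing is read from counts this low.

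Transporters of lysosomes and mitochondria were balanced, with 8 positive and 9 negative among 17 tested of 19 and a median of -0.04. By edgeR 0 passed, and 2 higher and 3 lower had an unadjusted p under 0.05 (6.21% and 7.08% of all tested genes). DESeq2 called 1 higher, against 1.10% of all genes to which it gave an adjusted p. That gene was SLC25A29, a mitochondrial carrier of basic amino acids, at 20.9, 20.9 and 19.4 CPM in raffinose libraries and 7.27, 14.2 and 13.5 CPM in untreated libraries (log2 fold change 0.81, SE 0.25, edgeR adjusted p = 0.266). The mitochondrial glutamate carrier SLC25A22 was at 76.6 ± 1.95 and 64.0 ± 1.91 CPM, and the ornithine carrier SLC25A15 at 49.8 ± 2.88 and 42.9 ± 1.11 CPM without and with raffinose (SD, n = 3 each). SFXN3, a serine carrier of mitochondria, was at 24.0 ± 0.591 and 28.1 ± 0.339 CPM (SD, n = 3 each).

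Genes that sense amino acids upstream of the kinase complex mTORC1 had 15 positive and 14 negative members among 29 tested, and a median of 0.05. None was called by edgeR, with 5 higher and 2 lower at an unadjusted p under 0.05 (6.21% and 7.08% of all tested genes). DESeq2 called 1 lower, against 1.83% of all genes to which it gave an adjusted p. This was NPRL3, a subunit of the GATOR1 complex that restrains mTORC1, with a log2 fold change of -0.37 (SE 0.08, edgeR adjusted p = 0.178). The leucine sensor SESN2 had means of 45.9 ± 2.96 in untreated and 55.8 ± 3.03 CPM in raffinose libraries (SD, n = 3 each). Its relative SESN3 was at 0.804 ± 0.188 and 1.97 ± 0.75 CPM, and CASTOR2, of the arginine sensor family, at 14.8 ± 1.37 and 19.4 ± 1.17 CPM (SD, n = 3 each).

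Of 17 genes that regulate transporter transcription, all tested, 8 were positive and 9 negative, and the median was -0.02. By edgeR 0 passed, with 2 higher and 5 lower at an unadjusted p under 0.05 (6.21% and 7.08% of all tested genes). DESeq2 called 1 higher, against 1.10% of all genes to which it gave an adjusted p. ATF4 was at 70.6, 69.6 and 67.8 CPM in raffinose and 78.1, 74.7 and 85.9 CPM in untreated libraries, without overlap (log2 fold change -0.20, SE 0.07, edgeR adjusted p = 0.311). ATF3, a stress-induced factor that DESeq2 called higher, was at 15.1 ± 0.722 and 27.3 ± 6.69 CPM, and NUPR1, another stress gene, at 3.94 ± 0.083 and 2.49 ± 0.753 CPM without and with raffinose (SD, n = 3 each). MYC had 11.4, 65.7 and 61.3 CPM with raffinose, and its untreated values ran from 7.99 to 13.1 CPM, so raffinose replicate 1 lay among the untreated libraries. Among the alternatives, edgeR called MYC higher without that replicate (adjusted p = 0.0493).

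Enzymes that make or use the carried amino acids had 11 positive and 23 negative members among 34 tested of 35, with a median of -0.09. By edgeR 0 passed, with 5 higher and 9 lower at an unadjusted p under 0.05 (6.21% and 7.08% of all tested genes). DESeq2 called 3 lower, against 1.83% of all genes to which it gave an adjusted p. These were CBS, PSAT1 and BCAT1. CBS, which starts the conversion of homocysteine to cysteine, was at 92.6 ± 3.15 and 68.0 ± 0.87 CPM without and with raffinose (SD, n = 3 each), a log2 fold change of -0.45 (SE 0.06, edgeR adjusted p = 0.0682). PSAT1, of serine synthesis, had -0.31 (SE 0.06, edgeR adjusted p = 0.144), and BCAT1, which transaminates leucine and other branched-chain amino acids, had -0.50 (SE 0.13, edgeR adjusted p = 0.215). PYCR3, an enzyme of proline synthesis, had -0.40 (SE 0.10, edgeR adjusted p = 0.191).

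Of 6 genes for partners or ubiquitin enzymes of these carriers, 0 passed by edgeR, and 1 lower had an unadjusted p under 0.05 (7.08% of all tested genes). DESeq2 called that gene, CD44, against 1.83% of all genes to which it gave an adjusted p. CD44 is a surface glycoprotein known to stabilise SLC7A11, and it was at 109.8, 102 and 96.0 CPM in raffinose and 144, 141 and 178 CPM in untreated libraries (log2 fold change -0.59, SE 0.11, edgeR adjusted p = 0.142). The deubiquitinase OTUB1, also known to act on SLC7A11, had -0.23 (SE 0.10). The ubiquitin ligases NEDD4L and RNF5 had -0.10 (SE 0.08) and -0.07 (SE 0.10). NEDD4L was at -0.05 without raffinose replicate 3 and at -0.15 without untreated replicate 1, and RNF5 at 0.0042 and 0.01 without those libraries.

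Likeness to a transporter was measured over the 6 libraries as the root mean square difference of log2 CPM, each gene taken relative to its own mean, among 9875 genes of at least 10 CPM outside the members. The profiles most like SLC6A9 were those of DLST, KNSTRN and IGFBP4, at 0.0729, 0.0834 and 0.0945 log2 units, and edgeR called all 3 lower. Genes picked by likeness over both groups share the fold change of the transporter, so these calls follow from the choice and add no support. Nearest to SLC7A5 were EPHB2 (0.0175), PYGB (0.0245) and CAVIN1 (0.0248). RASA1 (0.0214), SKAP2 (0.0229) and DUSP16 (0.0266) were nearest to SLC38A2, and UFC1 (0.0158), TLE5 (0.0163) and FBXW5 (0.0190) to SLC1A5. SLC6A9 had no neighbour as close as those of the other 3 transporters. It also had the largest fold change and the lowest CPM of these transporters, and the part of both in this distance was not tested.

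**Figure D5:**
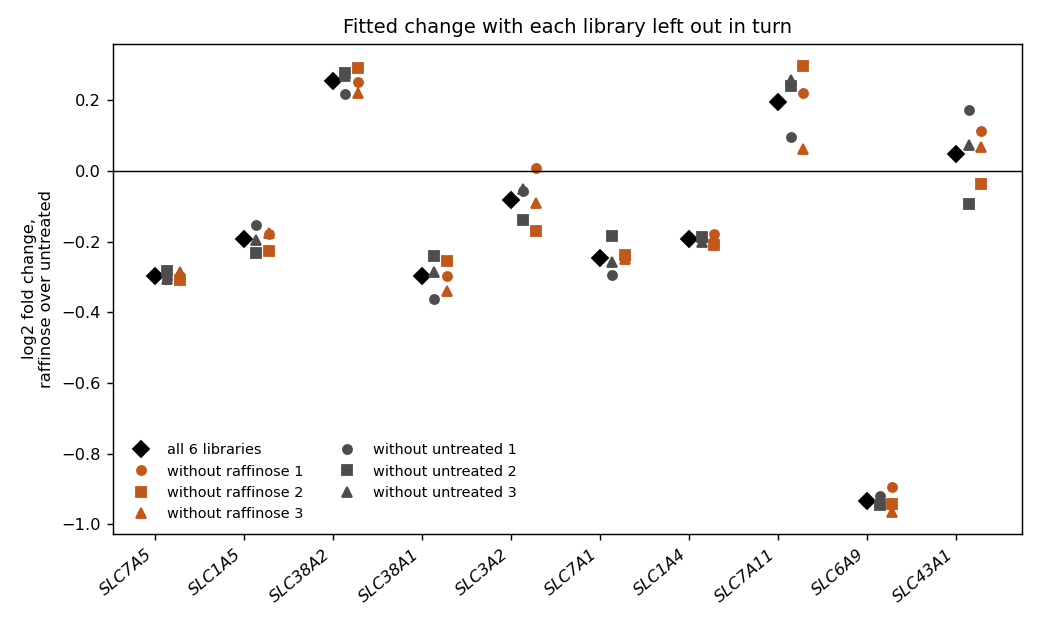
Log2 fold change of raffinose over untreated (vertical axis) for each transporter with all 6 libraries (black) and with each library left out in turn (grey, an untreated library; orange, a raffinose library). SLC6A9 stays between -0.96 and -0.90, SLC38A2 between 0.22 and 0.29, and SLC3A2 and SLC43A1 cross 0.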

How the data were processed

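Polyadenylated RNA of 6 libraries was compared, 3 per group, with groups taken from the sample source, because the treatment text names raffinose for all 6, those called untreated here included. The authors deposited 1 table with FPKM and estimated counts per gene, per the file headers. Genes without reads carry 0.0001 in place of 0 in the FPKM columns. Rounding changed nothing, as the file holds whole numbers. Per the submitters' processing notes, the tools included StringTie 1.3.4d, HISAT2 2.0.4 and cutadapt 1.9, besides DESeq2 and edgeR, with no roles named. The genome build is not given in the sources used here, nor is the annotation, but 5 of the 10 genes have the same start and end in GENCODE 29, and the others differ by at most 94 bases. Coordinates of genes are those of the table.

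Counts were tested in R 4.3.3 with edgeR 4.0.16 (filterByExpr with a minimum count of 10, TMM, glmQLFit and glmQLFTest), adjusted by Benjamini-Hochberg over all 18863 tested genes. Alternatives were DESeq2 1.42.0, DESeq2 size factors, no filter, a filter at FPKM 1, limma 3.58.1 on log2(FPKM + 1) and log2(FPKM + 0.1), counts divided by 4, a replicate block and each library left out. Libraries of a group differed by more than counting noise. Members and gene lists were chosen with earlier results of these data known. Named are all members, and in each other list the called genes and up to 4 tested genes with the smallest p. The 3 genes most like each of 4 transporters and overlapping genes are also named. Further overlapping genes were AC126696 and MIR6775 (SLC7A5), a minus-strand AC025031 (SLC38A1) and RNU6-548P (SLC1A4), with estimated counts of at most 8 in a library. SLC6A5, SLC7A6, SLC7A7, SLC7A8, SLC7A10, SLC1A1, SLC7A3, SLC1A2 and SLC38A3 were named after their values were seen. A planned comparison of protein sequences was not run.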

Additional observations from a re-analysis of the deposited data

How the results depend on the processing

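Of 469 values for single genes under 14 alternatives, 444 kept their direction and their side of the threshold, 11 were called there only, 7 were no longer called and 7 turned sign. All 7 lost calls were those of SLC6A9, which was called under the other 7 alternatives. It had an edgeR adjusted p of 0.0569 to 0.0949 with libraries left out and of 0.430 with the replicate block. Each gene whose value turned sign had a fold change smaller than its SE with all 6 libraries. With libraries left out the log2 fold change ranged from -0.17 to 0.0069 for SLC3A2, from -0.0924 to 0.173 for SLC43A1, from -0.312 to 0.0474 for SLC6A6, from -0.121 to 0.0135 for RNF5 and from -1.40 to 0.102 for SLC38A5.

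Against 7 genes higher and 16 lower, DESeq2 called 162 and 269, the filter at FPKM 1 gave 15 and 27 among 12012 tested, limma on log2(FPKM + 0.1) 11 higher, and counts divided by 4 gave 11 and 24. With libraries left out 0 to 15 genes were called higher and 4 to 13 lower, with 0 and 4 without untreated replicate 3. Members called lower numbered 1, 2 with DESeq2 and 0 with each library left out (0 to 0). Other plasma membrane transporters had 0 calls under all 14 alternatives. The cause of these differences was not tested.

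The replicate block gave 0 genes higher, 0 lower and 0 members lower, where 1932 genes had an unadjusted p below 0.05. Deviations from the group means correlated at -0.098, -0.16 and -0.034 between same-numbered libraries, and for 0 of 6 was the same number the best match, so the numbers were not taken as pairs. Among the 10 members SLC43A1 had the lowest estimated counts, 137 to 200 in a library.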
